A study of Mus musculus with 36 samples.

Results

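Genes that run the calcium store of the heart muscle cell were followed on 36 arrays of the developing mouse heart. The genes were Sln, Pln, Atp2a2, Ryr2, Casq1, Casq2, Trdn, Jph2, Hrc and Slc8a1. Every probe set annotated to one of these 10 symbols alone was taken, without regard to its values. The symbols themselves were chosen with earlier results of these data known. This gave 28 probe sets out of 45037 that are not controls, of which 34945 are annotated to 1 gene symbol. All 28 passed the filter on low values, which kept those above 171.8, the median over the whole table, on 3 arrays or more. The second Sln probe set passed through 6 atrial arrays alone, so its chamber difference and its atrial rise with age were in part required by the filter. The embryos were C57BL/6, and no gene change or treatment is named for any group. The 10 chamber groups were ventricles and atria on each embryonic day from E12.5 to E14.5, and then at E16.5 and E18.5. At E10.5 and E11.5 the tissue was the trunk segment that holds the heart, with head and tail ends cut away, although the source field calls it whole heart. It is called the heart region here. Each of these 12 groups had 3 arrays, and it is not stated whether they came from different embryos, litters or pools. P-values therefore measure the spread between arrays, which may be technical.

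When the surface membrane of a heart muscle cell is depolarised, a little calcium enters and opens the ryanodine receptor, which releases far more from the sarcoplasmic reticulum and starts contraction. The SERCA pump then refills the store, the small membrane proteins phospholamban and sarcolipin slow that pump, and the sodium-calcium exchanger carries calcium out of the cell. Inside the store calsequestrin binds calcium, triadin and the histidine-rich calcium-binding protein connect it to the release channel, and junctophilin holds the store membrane against the surface membrane.

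Values are intensities as deposited, whose 2% trimmed mean over the non-control probe sets ran from 498.6 to 499.2, and differences are on the log2(intensity + 17) scale with the standard error (SE) of a limma fit to all 36 arrays. A difference was called at an adjusted p below 0.05. A gene with several probe sets is described by the one with the highest mean, named its main probe set, and its other probe sets follow. Intensities of different probe sets are not compared with each other. The heart muscle marker Tnnt2 was high in every group, from 11820 to 23375. The summed intensity of 10 ventricular marker genes was between 65530 and 108260 on ventricular arrays and between 7968 and 71141 on atrial arrays. Irx4, a ventricular transcription factor, was between 355.6 and 1281 on 5 of the 15 atrial arrays (array 2 at E12.5, arrays 1 and 2 at E14.5, array 2 at E16.5 and array 1 at E18.5) and at most 137 on the other atrial arrays, against 1485 to 1964 on ventricular arrays. Array 1 of the E14.5 atria stood apart in both directions, with an atrial marker sum of 35593 against 51200 to 71791 on the other atrial arrays. Array 3 of the atria at E18.5, E16.5 and E13.5 had the highest sums of lung and foregut genes, and Alb was highest on array 2 of the E12.5 atria and of the E16.5 ventricles. Counts below were recomputed without each of these sets of arrays. In these bulk samples fewer cells of a type and less RNA per cell cannot be told apart.

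Sln encodes sarcolipin, the pump inhibitor that is known in the mouse heart as an atrial gene, and it was the member with the widest difference between chambers. On its main probe set, 1420884_at, the E12.5 atria read 3408, 2190 and 6390 and the E12.5 ventricles 204, 26 and 334. At E13.5 the atria read 4543, 10711 and 5780 and the ventricles 567, 35 and 50. At E14.5 the atria read 2804, 9558 and 4735 and the ventricles 14, 86 and 96. All 9 atrial arrays of these ages were above all 9 ventricular arrays. At E16.5 the atria read 12108, 15577 and 11282 and the ventricles 11, 254 and 18. At E18.5 the atria read 13562, 12282 and 13483 and the ventricles 1789, 72 and 16. The chambers stayed apart at both late ages, and each ventricular group held 1 array well above the other 2. Atrium minus ventricle was 4.61 at E12.5, 5.70 a day later, 6.16 at E14.5 and, at the later ages, 7.65 and 6.24, each ± 0.99 SE and each called, with an adjusted p of 0.00311 at E12.5 and 2.59e-06 at E16.5. Most of these ventricular readings were far below the table median of 171.8 and the late atrial ones were close to the array maxima, so the sizes depend on the pseudocount and are not exact folds. The mean over ages was 6.07 with a pseudocount of 17, 6.52 with 1 and 5.34 with 68. Ventricular array 1 at E18.5, which held the highest ventricular Sln, also had the highest Myl7 of its group, 9135 against 4792 and 4226, and the highest Mybphl, 298 against 124 and 141. Their part in that reading was not tested. Without it the E18.5 difference was 7.93.

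In the heart region Sln read 119, 137 and 70 at E10.5 and 436, 550 and 391 at E11.5, so all E11.5 arrays were above all E10.5 arrays. The difference, 1.95 ± 0.99, was not called in the fit to all arrays (adjusted p = 0.433) and was called in a fit to these 6 arrays alone (adjusted p = 0.0026). The highest atrial group means were 13109 ± 717 (SD, n = 3) at E18.5 and 12989 ± 2279 at E16.5. These overlapped each other and lay above every earlier atrial array, the highest of which was 10711 at E13.5. From E12.5 to E18.5 atrial Sln differed by 1.85 ± 0.99 (adjusted p = 0.183), which was not called, although it was in a fit to the compared arrays alone (adjusted p = 0.0106) and with array weights (2.46, adjusted p = 0.00699). The second probe set, 1420883_at, was near background in ventricles at all ages, from 10 to 76. In atria it read 29, 57 and 24 at E12.5, 332, 250 and 130 at E16.5, and 387, 473 and 417 at E18.5. Its atrial readings overlapped the ventricular ones at E12.5 and were above all of them at E16.5 and E18.5. Its atrial change from E12.5 to E18.5 was 3.09 ± 0.45 (adjusted p = 1.98e-05) and its ventricular change 0.43 ± 0.45 (adjusted p = 0.519). The arrays that took this probe set past the filter included every E18.5 atrial array and no E12.5 array. Its atrial rise was therefore in part required by the filter, and the p-value does not support it independently.

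**Figure D1:**
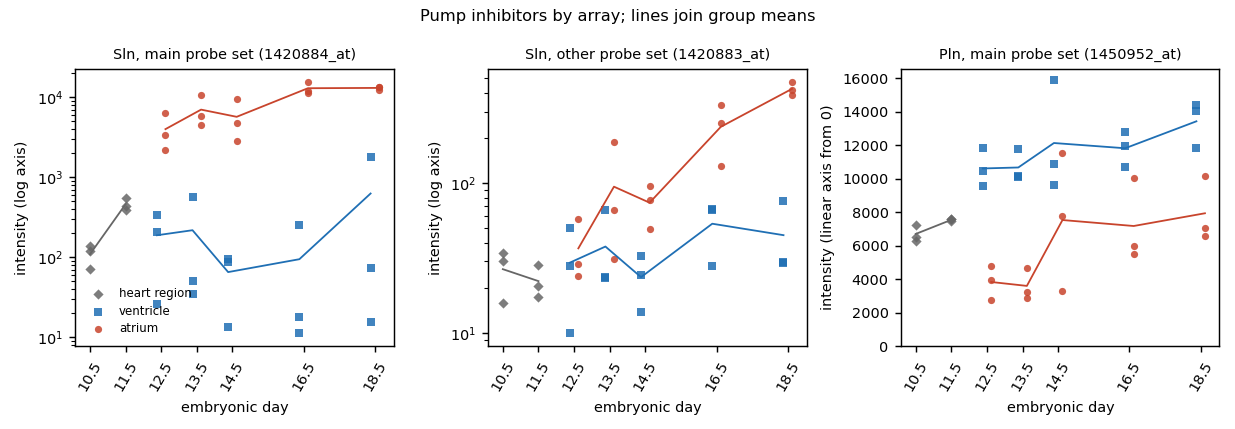
Intensity of Sln on both probe sets (log axes) and of Pln (linear axis from 0) against embryonic day, with a point for each array and lines through the means of 3 arrays; grey diamonds are the heart region, blue squares ventricles and red circles atria. Atrial Sln on the main probe set lies between 2190 and 15577, above every ventricular array (11 to 1789), while atrial Pln lies below the ventricular arrays at E12.5 and E13.5 and reaches into their range at E14.5.

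Pln encodes phospholamban, the main pump inhibitor of ventricular muscle, and it was lower in atria. On its main probe set, 1450952_at, the E12.5 ventricles read 9538, 10451 and 11819 and the E12.5 atria 2737, 4801 and 3934. At E13.5 the ventricles read 11742, 10082 and 10162 and the atria 2884, 4660 and 3228. Every ventricular array of these ages was above every atrial array. The differences, atrium minus ventricle, were -1.50 ± 0.28 at E12.5 (2.83-fold lower in atria, adjusted p = 0.000925) and -1.59 ± 0.28 at E13.5 (3.02-fold, adjusted p = 0.000268). At E14.5 the ventricles read 15866, 9642 and 10858 and the atria 7778, 11501 and 3293. These groups overlapped through atrial array 2. At E16.5 the ventricles read 10719, 11938 and 12772 and the atria 5963, 10044 and 5495. At E18.5 the ventricles read 14006, 14399 and 11852 and the atria 10175, 6586 and 7022. The groups did not overlap at either age, but 1 atrial array came close to the ventricles in each. From E14.5 on the differences were -0.83, -0.77 and -0.78 in order of age, each ± 0.28, with adjusted p-values of 0.0721, 0.0576 and 0.0484. The last alone was called, and that call was lost on leaving out 1 array at a time for 24 of the 36 arrays, at an adjusted p of up to 0.174.

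The atrial arrays with high Pln were for the most part those with high ventricular markers. Irx4 on atrial arrays 1, 2 and 3 read 32, 433 and 14 at E12.5, 26, 49 and 17 at E13.5, and 1281, 792 and 137 at E14.5. It read 18, 356 and 15 at E16.5 and 492, 48 and 23 at E18.5. In every age but E14.5 the atrial array with the most Pln was the one with the most Irx4, and at E14.5 the array lowest in Irx4 was lowest in Pln. Myl2, the ventricular myosin light chain, was also highest on these arrays, at 16782 on atrial array 2 of E16.5 against 1556 and 594 on the others. With the 5 atrial arrays highest in Irx4 left out, a choice made after seeing the values, Pln was lower in atria. At E14.5 this left 1 atrial array, array 3, which had the lowest Pln of its group. The E14.5 difference of -1.84 rests on that array. At E16.5 and E18.5 the differences were called, at -1.04 (adjusted p = 0.000188) and -0.97 (adjusted p = 0.000282). At both ages the array left out was the atrial one with the most Pln. A wider difference therefore followed from the choice, and these p-values do not support it independently. The mean over 5 ages was -1.09 ± 0.13 with all arrays (adjusted p = 3.11e-08). Without the 5 arrays it was -1.43 ± 0.08, with E14.5 entering through its 1 atrial array. The same limit holds for this mean. Leaving out atrial array 2 of E14.5 alone gave -1.22 at that age (adjusted p = 0.00618), and leaving out atrial array 2 of E16.5 gave -1.04 there (adjusted p = 0.0176). Each was the array highest in Pln of its atrial group, so its removal could only widen the difference. Leaving out array 3, the lowest in Pln at both ages, moves the difference the other way.

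**Figure D2:**
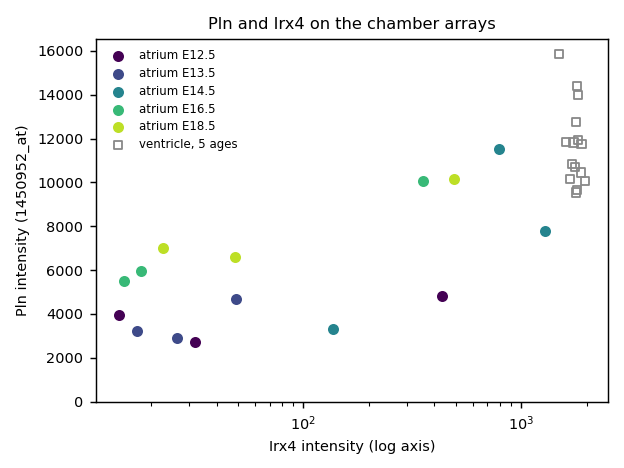
Pln intensity (linear axis from 0) against the intensity of the ventricular transcription factor Irx4 (log axis), with a filled circle for each of 15 atrial arrays coloured by age and an open square for each of 15 ventricular arrays. The 4 atrial arrays highest in Pln (7778 to 11501) are among the 5 highest in Irx4, and ventricular arrays sit at the right with Pln between 9538 and 15866.

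The other Pln probe sets gave the same picture. On 1423359_at the mean chamber difference was -1.24 ± 0.13 and on 1460332_at it was -1.08 ± 0.12. Both were called at E12.5, E13.5 and, unlike the main probe set, E16.5. Atrial Pln rose from E12.5 to E18.5 on all 3 probe sets, by 1.06 ± 0.28 on the main one (2.08-fold, adjusted p = 0.00613), 1.32 ± 0.30 and 0.96 ± 0.26. The rise kept its size without the 5 atrial arrays highest in Irx4, at 1.05 (adjusted p = 0.000917), and fell under the threshold without array 1 of the E12.5 atria, at 0.84 (adjusted p = 0.0655). Ventricular Pln differed by 0.34 ± 0.28 over the same interval (adjusted p = 0.399). The change in atria minus that in ventricles was 0.72 ± 0.40 (adjusted p = 0.341), so a difference between the chambers in the change was not detected. The heart region read 6294, 7250 and 6535 at E10.5 and 7579, 7439 and 7593 at E11.5, and its difference of 0.17 ± 0.28 was not called.

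Atp2a2 encodes the cardiac SERCA pump itself, and it differed little between chambers or ages. On its main probe set, 1416551_at, the 10 chamber groups held readings from 9278 to 19030 and all heart region arrays lay between 11396 and 13211. The highest reading, 19030, came from ventricular array 1 of E14.5, which also had the highest Tnnt2 of all arrays, 23375. The mean chamber difference was -0.11 ± 0.07 (adjusted p = 0.246), with a 95% interval from -0.26 to 0.04. No other comparison of this probe set was called. Array maxima lay between 12532 and 26432, so these readings are near the top of the arrays' range. Lower on the range, 1427250_at read 4184 to 5940 in ventricles and 4316 to 6082 in atria, and was higher in atria by 0.16 ± 0.04 (adjusted p = 0.00223). The remaining 4 probe sets of Atp2a2 were not called in any comparison.

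Ryr2, the calcium release channel, rose from E12.5 to E18.5 in both chambers. On 1450123_at the E12.5 ventricles read 2770, 2856 and 2253, and the E14.5 ventricles 2867, 2357 and 2634. The E16.5 ventricles read 3872, 3695 and 4038 and the E18.5 ventricles 4856, 5102 and 4872. All readings of E16.5 lay above those of E12.5 to E14.5, and all of E18.5 above those of E16.5. The ventricular rise from E12.5 to E18.5 was 0.92 ± 0.12 (1.89-fold, adjusted p = 2.77e-06). Between E13.5 and E16.5 it was 0.50 ± 0.12 (adjusted p = 0.0264), a call lost without ventricular array 2 of E13.5 (0.41), array 3 of E13.5 (0.47), or arrays 1 (0.50) or 3 (0.47) of E16.5. Under median centring that difference was 0.33 (adjusted p = 0.157), and without the arrays highest in Alb it was 0.53 (adjusted p = 0.053). Atria read 2957, 2767 and 3336 at E12.5, 3890, 3622 and 3433 at E16.5, and 4403, 4481 and 3847 at E18.5. Their rise from E12.5 to E18.5 was 0.49 ± 0.12 (1.40-fold, adjusted p = 0.00407), and the E18.5 and E16.5 readings overlapped. Neither shorter atrial interval was called, at 0.36 from E13.5 to E16.5 (adjusted p = 0.236) and 0.22 from E16.5 to E18.5 (adjusted p = 0.6). The rise in atria minus that in ventricles was -0.43 ± 0.17 (adjusted p = 0.175) and was not called. Between the chambers Ryr2 differed by -0.01 ± 0.06 over the 5 ages, with a 95% interval from -0.12 to 0.10. The second probe set, 1421126_at, rose by 1.04 ± 0.19 in ventricles and by 0.73 ± 0.19 in atria, and both were called.

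Casq2 encodes cardiac calsequestrin and Casq1 the calsequestrin best known from skeletal muscle, and the 2 genes moved in opposite directions with age. On 1422529_s_at the heart region read 608, 616 and 596 at E10.5 and 1313, 1497 and 1159 at E11.5. Casq2 in ventricles read 2434, 5694 and 2426 at E12.5, 7547, 4616 and 5898 a day later, and 8533, 4231 and 6552 at E14.5. The ventricles of later ages read 7911, 8479 and 8732 at E16.5 and 9633, 10090 and 8511 at E18.5. Every E11.5 array was above every E10.5 array, and every E18.5 ventricular array above every E12.5 one. Array 2 of the E12.5 ventricles was the only one of its age to reach the range of E13.5. In atria Casq2 read 2277, 2396 and 6189 at E12.5, 4338, 7417 and 5487 a day later, and 4886, 9339 and 4737 at E14.5. It read 7673, 9518 and 7818 at E16.5 and 8467, 7207 and 7881 at E18.5. Array 3 of the E12.5 atria reached the range of the next 2 ages. Casq2 rose from E12.5 to E18.5 by 1.53 ± 0.31 in ventricles (2.90-fold, adjusted p = 0.000397) and by 1.27 ± 0.31 in atria (2.42-fold, adjusted p = 0.00315). Without the 5 atrial arrays highest in Irx4 the atrial rise was not called (adjusted p = 0.0588), and without array 3 of the E12.5 atria it was 1.74. From E10.5 to E11.5 the difference was 1.10 ± 0.31 (adjusted p = 0.0798). That was called without ventricular array 2 of E12.5 (adjusted p = 0.0392) or atrial array 3 of E12.5 (adjusted p = 0.0255), arrays that enter this comparison only through the shared estimate of spread. The chambers differed by -0.08 ± 0.14 over the 5 ages, with a 95% interval from -0.36 to 0.21.

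Casq1, on 1422598_at, was highest early and higher in atria. The heart region read 5966, 6080 and 6416 at E10.5 and 5153, 5176 and 5649 at E11.5. Atria read 8091, 6432 and 6656 at E12.5, 5862, 3227 and 4550 a day later, and 4244, 3538 and 6054 at E14.5. Ventricles read 3830, 3107 and 4555 at E12.5, 2280, 3364 and 2946 a day later, and 1875, 3247 and 2777 at E14.5. Every atrial array was above every ventricular array at E12.5 and E14.5, and at E13.5 atrial array 2 was below ventricular array 2. At E16.5 atria read 2805, 3204 and 2583 against 1981, 2051 and 1944 in ventricles, and at E18.5 they read 2721, 3499 and 2484 against 2226, 2479 and 2303. No atrial array of these late ages was below a ventricular array of its age. Atrium minus ventricle was called at the first 3 ages, at 0.89 (adjusted p = 0.0036), 0.64 (adjusted p = 0.0283) and 0.80 (adjusted p = 0.0121). It was 0.51 at E16.5 (adjusted p = 0.0677) and 0.30 at E18.5 (adjusted p = 0.31), each value ± 0.19, and neither was called. The call at E13.5 was lost without ventricular array 1 (0.49) or 3 (0.67) or atrial array 1 (0.44) or 3 (0.62) of that age, under median centring (0.49), in the compared arrays alone (adjusted p = 0.0803) and without the arrays highest in lung and foregut genes (adjusted p = 0.0869). At E14.5, removing ventricular array 1 (0.58) or atrial array 3 (0.59) ended the call, as did fitting the compared arrays alone (adjusted p = 0.204) and array weights (adjusted p = 0.0731). The mean over ages was 0.63 ± 0.09 (1.55-fold, adjusted p = 8.14e-07) and was called in every alternative run. Casq1 fell from E12.5 to E18.5, with differences of -0.69 ± 0.19 in ventricles (1.62-fold, adjusted p = 0.0078) and -1.29 ± 0.19 in atria (2.44-fold, adjusted p = 2.88e-05). The ventricular fall was not called without array 3 of the E12.5 ventricles (-0.56, adjusted p = 0.061) or under median centring (-0.61, adjusted p = 0.0558). The difference between the chambers in this change was -0.59 ± 0.28 and was not called (adjusted p = 0.242).

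**Figure D3:**
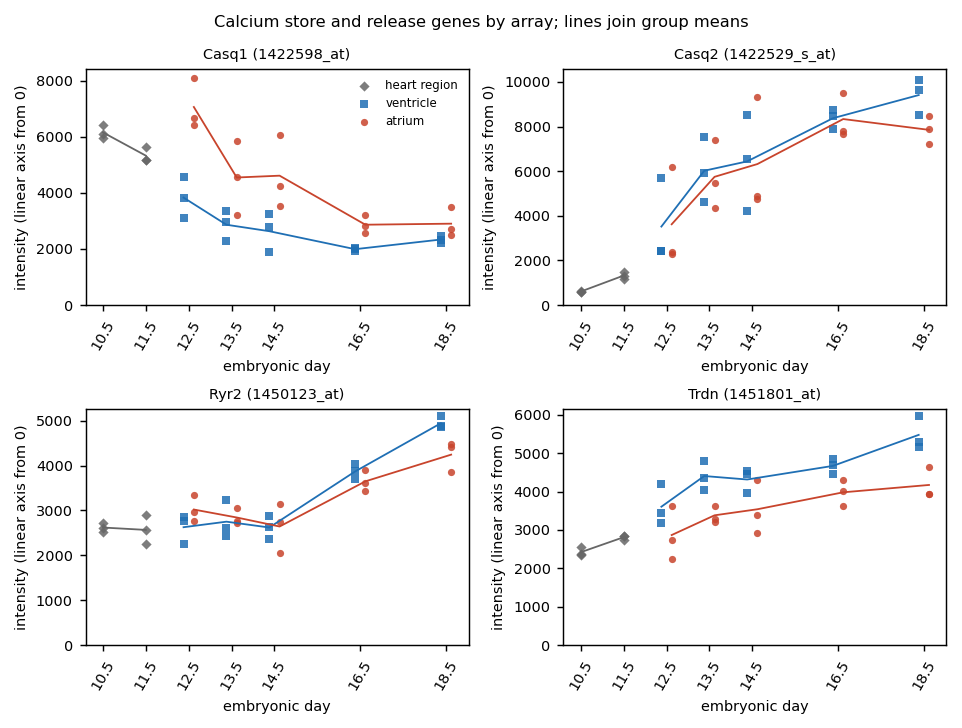
Intensity (linear axes from 0) of Casq1, Casq2, Ryr2 and Trdn against embryonic day, with a point for each array and lines through means of 3 arrays; grey diamonds are the heart region, blue squares ventricles and red circles atria. Casq1 falls from up to 8091 at E12.5 to 3499 or less from E16.5 on, Ryr2 departs from its early level at E16.5, and atrial Trdn runs under ventricular Trdn. Ventricular Casq2 lies between 2426 and 5694 at E12.5 and between 8511 and 10090 at E18.5. In the heart region, which is not a dissected chamber, Casq2 lies between 596 and 1497.

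Markers of other cells beside the calsequestrins were as follows. The sum of 18 skeletal muscle genes was between 8472 and 19486 on ventricular arrays and between 7841 and 26235 on atrial arrays. Mylpf, a fast skeletal light chain, read 1104 on atrial array 2 of E16.5 and 611 on atrial array 3 of E14.5, and 104 to 384 on the other atrial arrays. The muscle regulators Myog and Myod1 were highest on atrial array 3 of E14.5, at 642 and 380, an array that also held the highest Casq1 of its group. At E12.5, where Casq1 was highest, Myog in atria read 129, 244 and 123. Of 12 skeletal muscle genes measured 3 were higher and 1 lower in atria over the 5 ages, beside 24% and 22.6% of all genes. Of 7 erythroid genes 5 were measured, and all 5 were higher in atria over the 5 ages. All 5 fell in both chambers from E12.5 to E18.5, as Casq1 did, beside 16.9% of all genes in ventricles and 12.8% in atria. Their sum in ventricles was 36214, 24786 and 47784 at E12.5, 17781, 30113 and 23886 a day later, 15285, 30943 and 22414 at E14.5, and between 1366 and 1638 at E18.5. It was seen after the values were known that within each of these early ventricular groups the arrays ranked in the same order by Casq1 and by the erythroid sum, and in the reverse order by Casq2. At E12.5 ventricular arrays 1 and 3 were close in Casq2, at 2434 and 2426. In the E12.5 atria the sum was 55113, 47482 and 37980, and the array with the least had the most Casq2. Casq1 there read 8091, 6432 and 6656, which is not the order of the erythroid sum. Between E16.5 and E18.5 the ventricular sum went from 3690 to 10358 down to 1366 to 1638 while Casq1 read 1944 to 2051 and then 2226 to 2479. The part of red blood cells and of skeletal muscle in the Casq1 and Casq2 results was not tested.

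The promoters of Pln and of the calsequestrins are printed because these 3 genes carried chamber or age differences of opposite sign. They are 250 bases before and 50 from the RefSeq start on, in GRCm38.p6, 5′ to 3′ on the gene's strand. Capitals mark matches, on either strand, to the MCAT box, spelled CATTCC, the GATA site, spelled AGATAA, the TATA box, spelled TATAAA, or the CArG box and MEF2 site of muscle genes. E-boxes, spelled CANNTG and searched too, are left in lower case.
Pln: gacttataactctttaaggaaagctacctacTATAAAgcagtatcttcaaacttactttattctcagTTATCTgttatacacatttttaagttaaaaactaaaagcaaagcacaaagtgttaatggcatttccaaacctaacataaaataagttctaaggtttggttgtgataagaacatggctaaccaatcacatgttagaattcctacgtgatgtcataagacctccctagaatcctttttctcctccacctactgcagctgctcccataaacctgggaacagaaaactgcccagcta
Casq1: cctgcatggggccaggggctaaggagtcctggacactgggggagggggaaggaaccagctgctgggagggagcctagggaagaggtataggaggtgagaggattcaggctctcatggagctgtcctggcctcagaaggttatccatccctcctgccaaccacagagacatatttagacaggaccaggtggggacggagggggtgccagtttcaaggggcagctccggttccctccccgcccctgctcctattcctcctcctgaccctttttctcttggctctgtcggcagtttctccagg
Casq2: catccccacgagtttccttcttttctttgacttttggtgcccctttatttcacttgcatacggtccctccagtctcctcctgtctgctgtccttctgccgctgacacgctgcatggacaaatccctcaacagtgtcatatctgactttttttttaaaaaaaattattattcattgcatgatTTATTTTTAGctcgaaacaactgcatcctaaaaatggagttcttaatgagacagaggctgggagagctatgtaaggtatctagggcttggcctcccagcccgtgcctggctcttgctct
The Pln window is chr10:53337436-53337735 on the plus strand, with a TATA box match 219 bases and a GATA match, on the other strand, 183 bases before the start. Casq1 is chr1:172219846-172220145 on the minus strand and held E-boxes alone. Casq2 is chr3:102086165-102086464 on the plus strand, with a MEF2 match 69 bases before the start. A promoter was found for 7 of the 10 genes, and among these 7 had an E-box, 2 a GATA match, 1 a TATA match, 1 a MEF2 match, and 0 an MCAT or CArG match. Of 32841 promoters of the same length 72.3% held an E-box, 14.7% MCAT, 11.2% GATA, 13.6% TATA, 1.63% CArG and 3.19% MEF2. A match is a description of letters in the window, not of binding.

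Trdn encodes triadin, which anchors calsequestrin to the release channel, and on its main probe set it was lower in atria and rose with age. On 1451801_at the ventricles read 3446, 4188 and 3187 at E12.5 and 5173, 5962 and 5306 at E18.5. The atria read 2240, 2745 and 3618 at E12.5 and 4648, 3935 and 3940 at E18.5. The chambers overlapped at E12.5 through atrial array 3 and did not at E18.5. The mean chamber difference was -0.33 ± 0.06 (1.26-fold lower in atria, adjusted p = 3.01e-05), and the rise from E12.5 to E18.5 was 0.61 ± 0.13 in ventricles (adjusted p = 0.000714) and 0.56 ± 0.13 in atria (adjusted p = 0.00202). At single ages the difference was called at E18.5 (-0.39 ± 0.13, adjusted p = 0.0309), and lost without ventricular arrays 2 (-0.33) or 3 (-0.41) or atrial arrays 2 (-0.35) or 3 (-0.35) of that age, with quantile normalization (adjusted p = 0.115), under median centring (adjusted p = 0.0591) and without the arrays highest in lung and foregut genes (adjusted p = 0.128). The atrial rise was not called in the compared arrays alone (adjusted p = 0.0588). The 6 Trdn probe sets did not move together. Over the 5 ages 1426134_at (-0.59 ± 0.08) and 1451940_x_at (-0.46 ± 0.12) were also lower in atria, and the other 3 were not called. At E18.5, however, 1426143_at read 1972, 2199 and 928 in atria and 684, 1107 and 361 in ventricles, and was higher in atria by 1.27 ± 0.38 (adjusted p = 0.0162). The atrial array 3 reading lay within the ventricular range. Averaging the 6 probe sets turned the E18.5 value to 0.060 (adjusted p = 0.84), left the mean over ages at -0.24 (adjusted p = 0.00895), and put the ventricular rise at 0.40 (adjusted p = 0.0652), no longer called, and the atrial rise at 0.81 (adjusted p = 0.000503). The ventricular rise on 1426142_a_at was 0.47 ± 0.18 (adjusted p = 0.0442) and its atrial rise 0.87 ± 0.18 (adjusted p = 0.000551). Which transcripts each probe set detects was not analysed here.

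Jph2, which encodes the junctophilin of heart muscle, was slightly lower in atria. On 1455404_at the 15 ventricular arrays ran from 2766 to 4684 and the 15 atrial arrays from 2003 to 3751. The chambers overlapped at every age before E18.5, when the ventricles read 4684, 4233 and 3700 and the atria 3229, 3534 and 3156 with no overlap. The mean difference was -0.23 ± 0.07 (1.17-fold, adjusted p = 0.00864), and that on 1421453_at was -0.41 ± 0.08 (adjusted p = 9.49e-05). No single age was called on the main probe set. Hrc, the histidine-rich calcium-binding protein, was called in none of the 14 comparisons. It read 2020 to 3574 in ventricles and 1823 to 3223 in atria, and its mean chamber difference was -0.07 ± 0.06 with a 95% interval from -0.20 to 0.05. Its widest value was a ventricular difference of 0.42 ± 0.14 between E13.5 and E16.5 (adjusted p = 0.0862).

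Slc8a1 encodes the sodium-calcium exchanger, and its direction depended on the probe set. The main one, 1437675_at, read 1957, 2477 and 2490 in E12.5 ventricles and 1873, 1548 and 1641 in E18.5 ventricles. In atria it read 2254, 3007 and 2459 at E12.5, 2727, 2271 and 2618 at E16.5, and 1917, 1490 and 1424 at E18.5. All readings of E18.5 lay below all of E12.5 in either chamber. The falls were -0.44 ± 0.13 in ventricles (adjusted p = 0.0121) and -0.67 ± 0.13 in atria (adjusted p = 0.000474). The ventricular fall was lost without arrays 2 (-0.39) or 3 (-0.39) of E12.5 or array 2 of E18.5 (-0.38), under median centring (-0.36, adjusted p = 0.0869) and with array weights (-0.26, adjusted p = 0.108). The atrial difference between E16.5 and E18.5 was -0.66 ± 0.13 (adjusted p = 0.0196), and lost without atrial array 3 of E16.5 (-0.64) or arrays 2 (-0.61) or 3 (-0.58) of E18.5, and without the 3 arrays highest in lung and foregut genes (-0.55, adjusted p = 0.522). Over the 5 ages 1437675_at was higher in atria by 0.18 ± 0.06 (adjusted p = 0.0148), whereas 1425817_a_at was lower by -0.46 ± 0.08 (adjusted p = 1.29e-05) and 1440201_at by -0.37 ± 0.08 (adjusted p = 0.000415), and 1420210_at differed by 0.02 ± 0.11. On 1425817_a_at the E18.5 ventricles read 1391, 1555 and 1523 and the atria 1033, 998 and 879, with no overlap. The mean of the 4 probe sets was -0.16 (adjusted p = 0.00646). Without E14.5 the main probe set gave 0.16 (adjusted p = 0.0524) and without the 5 atrial arrays highest in Irx4 0.14 (adjusted p = 0.0666).

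**Figure D4:**
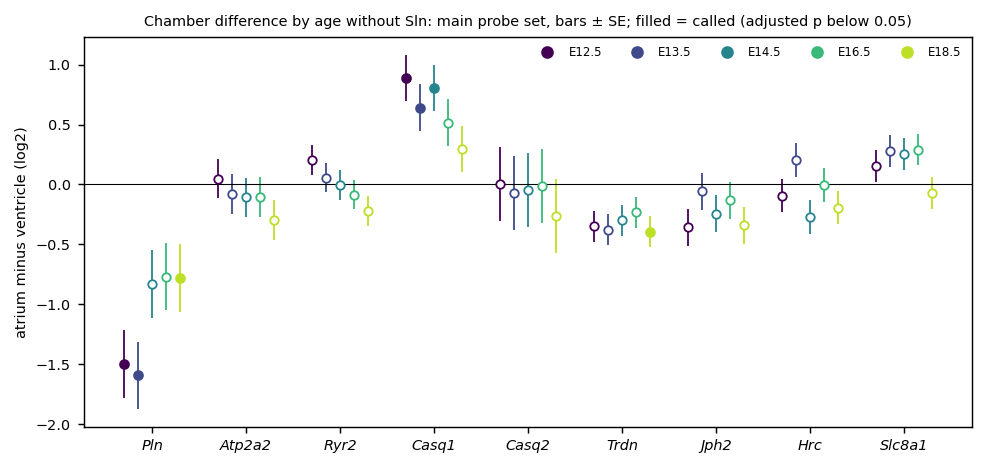
Atrium minus ventricle on the log2 scale at each of 5 ages (colours) for the main probe set of 9 genes, with bars of ± 1 SE and filled circles where the difference was called; Sln is left out for scale. Pln lies below 0 at every age and farthest at E13.5 (-1.59), Casq1 lies above 0 with a smaller value at each later age after E14.5 (0.80, 0.51 and 0.30), and Trdn lies below 0 throughout.

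Counted over genes, 3 of the 10 were higher in atria over the 5 ages (Sln, Casq1 and, on its main probe set though not on the mean of its probe sets, Slc8a1) and 3 were lower (Pln, Trdn and Jph2). Of 12983 genes tested 24% were higher and 22.6% lower, so that a call in this comparison was common. The members were chosen with earlier results of these data known, so setting counts beside shares is a description. The median difference of the 10 genes was -0.07 beside -0.0030 over all genes, and the median size was 0.20 beside 0.16. At E12.5 2 genes were higher and 1 lower (5.22% and 6.06% of all genes), and a day later again 2 and 1 (6.72% and 7.81%). The count at E14.5 was 2 and 0 (5.11% and 2.37%). At E16.5 1 was higher and 0 lower (10.9% and 8.7%), and at E18.5 1 was higher and 2 lower (12.9% and 9.8%). At an unadjusted p below 0.05, limma gave 4 of the 10 genes at each of E14.5 and E16.5. The share of all genes at that threshold was not computed, so these counts are not a result about the members. Without the 5 atrial arrays highest in Irx4, 2 genes were called at E16.5, Sln and Pln. For Pln the array left out at that age had the most atrial Pln, so this call is not independent support. At E14.5 that setting left 1 atrial array, so its count is not given. The count at E18.5 fell to 1 without the 3 arrays highest in lung and foregut genes. Shares of all genes were not computed for these settings.

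From E12.5 to E18.5, 3 of the 10 rose in ventricles (Ryr2, Casq2 and Trdn) and 2 fell (Casq1 and Slc8a1), beside 14.7% and 16.9% of all genes. In atria the same 5 moved the same way and Pln rose as well, which made 4 higher and 2 lower beside 14.6% and 12.8%. For the mean of its probe sets Slc8a1 was not called in either chamber, at -0.11 in ventricles and 0.038 in atria. The median of the 10 genes was 0.20 in ventricles and 0.31 in atria, beside -0.03 and 0.02 over all genes. The 2 comparisons share no arrays, but they come from 1 fit with a shared estimate of spread. Atria and ventricles of an age may come from the same embryos, so they are not independent evidence. The difference between chambers in this change was called for 0 of the 10 genes (2 at an unadjusted p below 0.05 in limma), beside 3.3% higher and 1.26% lower. Of shorter intervals, E13.5 to E16.5 gave 1 rise in ventricles, of Ryr2 (1.22% and 2.1% of all genes higher and lower). In atria that interval gave 0 calls (0% of all genes either way), and 3 members had an unadjusted p below 0.05 in limma. E16.5 to E18.5 gave 0 calls in ventricles (2 at an unadjusted p below 0.05 in limma; 0.123% and 0.108%) and 1 fall in atria (Slc8a1; 0.193% either way). E10.5 to E11.5 gave 0 calls (1.24% and 0.27%), and 1 member had an unadjusted p below 0.05 in limma. All percentages here are at an adjusted p below 0.05. The share of all genes at the unadjusted threshold was not computed, so the unadjusted counts cannot be set against them.

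**Figure D5:**
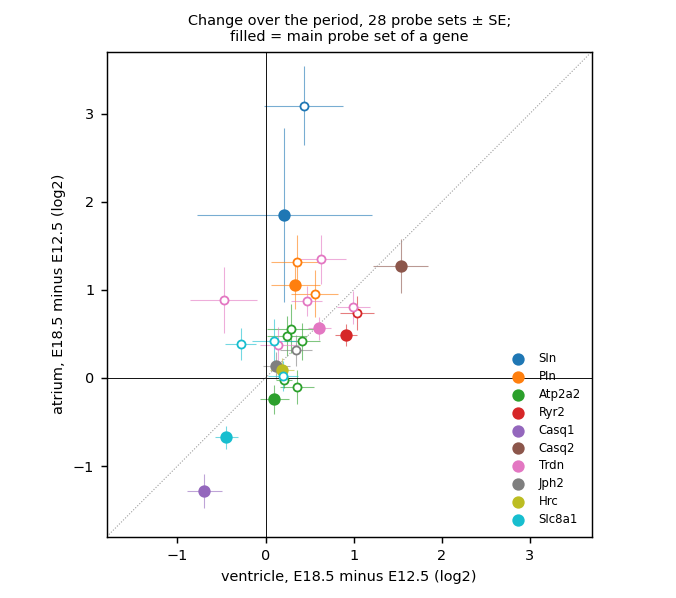
Difference between E18.5 and E12.5 on the log2 scale in atria against that in ventricles for all 28 probe sets, with bars of ± 1 SE; filled circles are main probe sets, open circles other probe sets of the same gene, and the dotted line marks equal change. Casq2 (1.53 in ventricles, 1.27 in atria) and Ryr2 (0.92, 0.49) lie in the upper right, Casq1 (-0.69, -1.29) and the main probe set of Slc8a1 (-0.44, -0.67) in the lower left, and the second Sln probe set (0.43, 3.09) far above the line. That Sln probe set passed the filter through atrial arrays alone, so its place was in part required by the filter.

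The other calcium genes were read from a list of 56, of which 49 were measured. This list, like the cell type lists, was chosen with earlier results of these data known. Over the 5 ages 12 of these were higher in atria and 18 lower, beside 24% and 22.6% of all genes. The higher ones were led by Ryr3, a second type of release channel (2.67 ± 0.16), Atp2a1, the pump of fast skeletal muscle (0.85 ± 0.18), the IP3 receptor Itpr2 (0.77 ± 0.10) and the calcium buffer Pvalb (0.72 ± 0.14). The lower ones were led by Dhrs7c (-1.25 ± 0.31), the SERCA and ryanodine receptor partner S100a1 (-0.71 ± 0.09), caveolin Cav3 (-0.59 ± 0.12) and Cacna1c, the L-type channel whose current triggers Ryr2 (-0.58 ± 0.06). The median of the 49 was -0.08, beside -0.0030 over all genes. By age, 2 were higher and 4 lower at E12.5 (5.22% and 6.06% of all genes), 6 and 6 a day later (6.72% and 7.81%), and 2 and 0 at E14.5 (5.11% and 2.37%). The counts were 4 and 3 at E16.5 (10.9% and 8.7%), and 6 and 6 at the last age (12.9% and 9.8%). Ryr3 led the higher genes at each age (1.98, 2.51, 2.01, 3.26 and 3.56 in order). Beside it stood Cacna1g, a T-type calcium channel, at E12.5 (1.50) and E14.5 (1.66), and Atp2a1 (1.35), the exchanger Slc8a3 (0.87) and the pump Atp2a3 (0.77) at E13.5. At E16.5 and E18.5 these were Itpr2 (1.18 and 1.27), Pvalb (1.12 and 1.11) and the ryanodine receptor partner Fkbp1b (0.88 and 0.75). At E12.5 and E13.5 the lower genes were led by Cav3 (-0.85 and -0.82), S100a1 (-0.75 and -0.78), the calcium channel subunit Cacna2d1 (-0.74 and -0.67) and Cacna1c (-0.57 and -0.51). S100a1 (-0.80) and Cacna1c (-0.74) were lower at E16.5 with Prkaca (-0.41), and again at E18.5 (-0.84 and -0.76) with Cacna1g (-1.16) and Gstm7 (-0.63). Beside them, of 15 general heart muscle genes 1 was higher and 7 lower in atria, with a median of -0.14, and 7 of 7 epicardial genes (median 0.96) and 8 of 9 fibroblast and matrix genes (median 0.62) were higher and 0 lower. Of these 9, 6 rose and 0 fell in ventricles from E12.5 to E18.5 (14.7% and 16.9% of all genes). In atria 6 rose and 1 fell (14.6% and 12.8%). The part of muscle content and of these cells in the members' chamber and age differences was not tested.

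From E12.5 to E18.5, 16 of the 49 rose and 5 fell in ventricles (14.7% and 16.9% of all genes), and 16 rose and 7 fell in atria (14.6% and 12.8%). Dhrs7c rose most, by 4.74 ± 0.69 in ventricles and 3.77 ± 0.69 in atria. In ventricles it was followed by the T-type channel Cacna1g (3.06 ± 0.36), the phosphodiesterase Pde3a (1.50 ± 0.34) and Gstm7 (1.20 ± 0.15), and in atria by Cav3 (1.35 ± 0.26), the anchoring protein Akap6 (1.24 ± 0.20) and Pde4b (1.14 ± 0.15). The kinase subunit Camk2a fell most, with -1.96 ± 0.44 in ventricles and -2.89 ± 0.44 in atria. Ryr3 (-1.32 ± 0.37), the T-type channel Cacna1h (-1.14 ± 0.16) and the phosphatase inhibitor Ppp1r1a (-0.86 ± 0.13) also fell in ventricles, and Atp2a1 (-1.11 ± 0.41), Cacna1h (-0.62 ± 0.16) and the chaperone Hspa5 (-0.41 ± 0.14) in atria. The chambers differed in this change for Cacna1g (-2.66 ± 0.51, adjusted p = 0.00257) and Ppp1r1a (0.71 ± 0.19, adjusted p = 0.0305). In the shorter intervals Ppp1r3a (0.73) and Gstm7 (0.70) rose and Ppp1r1a (-0.64) fell in ventricles between E13.5 and E16.5, and Cacna1g rose in the heart region (1.45). Of the 15 general heart muscle genes 8 rose and 0 fell in ventricles and 5 rose and 0 fell in atria.

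The genes whose group means followed each member most closely over the 10 chamber groups are given as a description, by Pearson's r over 10 means that share arrays and scaling with the member. For Sln they were Myl12b (0.991), Ptpn14 (0.990), Epb41l2 (0.988), Mybphl (0.987) and Tmem263 (0.986). Mybphl, a myosin-binding protein of atrial muscle, varied about as widely as an atrial marker (SD of the group means 2.24 on the log2 scale), while Ptpn14 varied by 0.16. For Pln they were Tcap (0.984), Retreg1, Tnfrsf12a, Cystm1 and Insr, for Ryr2 Mavs (0.968), Ablim1, Cox6a2, Tex261 and Gpsm1, and for Trdn Acadl (0.990), Acat1, Tle5, Pdxk and Idh3g. Tcap is a sarcomere protein, and Acadl and Acat1 are enzymes of fatty acid and ketone metabolism. For Casq2 they were Gja3 (0.983), Selenop, Hspb6, Postn and Gng11, and for Casq1 Timm17b (0.983), Tal1, Tpgs2, Pole3 and Dhx8, of which Tal1 is a regulator of blood cell formation. For Atp2a2 they were Rps29 (0.963), Atp5j2, Cox6a1, Cox7a2 and Atp5g3, and for Jph2 Snrk (0.937), Akr1b10, Spring1, Myom1 and Efr3a. For Hrc they were Adck2 (0.923), Plpbp, Capn1, 5730405A17Rik and Cc2d1b, and for Slc8a1 Cdc25b (0.937), Pom121, Nat8f2, Slc25a37 and Bpgm. Among the members themselves Casq1 ran against Trdn (-0.94), Pln (-0.82) and Casq2 (-0.78), Pln ran with Trdn (0.84), and Sln against Pln (-0.76).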

How the data were processed

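Affymetrix mouse arrays measured RNA of 36 heart samples, 12 groups of 3. The values are intensities on a linear scale that the authors deposited in the series matrix, 1 for each of 45101 probe sets and array, and their computation and scaling are not given in the sources used here. After 64 control probe sets were left out, 34945 probe sets had 1 gene symbol, 932 several and 9160 none in the platform annotation. A pseudocount of 17, 10% of the median, was added before log2. The 27256 probe sets above 171.8 on at least 3 arrays, of 12983 genes, were fitted with limma 3.58.1 in R 4.3.3, with 12 group means, 24 residual and 5.68 prior degrees of freedom and an intensity trend. Tests were two-sided, with Benjamini-Hochberg adjustment over these probe sets within each of 14 comparisons. The number of arrays limits the precision. On simulated data the mean over ages recovered 98% of probe sets changed by 1 on the log2 scale and the E12.5 comparison 74%. Of 27256 probe sets 100 were changed by 1 and another 100 by 2. The simulated noise was normal and independent between probe sets, without differences in tissue content between arrays, so recovery on the real arrays may be lower. Each gene was described by the probe set whose mean was highest, and shares of all genes are over these. Members are named in each comparison, calcium genes by up to 4 called in each direction with the largest change in the comparisons given, and like genes by the 5 highest correlations. The members and lists were chosen with earlier results of these data known. Other normalizations, pseudocounts, filters, weights, averaged probe sets and fits without single arrays were tried, as given in the closing section. Promoters are RefSeq's; Sln, Atp2a2 and Trdn had no entry. The day in the title was used for E16.5, where the description gives 15.5.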

Additional observations from a re-analysis of the deposited data

Results flagged for a closer look

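Sln on 1420883_at: the atrial change from E12.5 to E18.5 exceeded the ventricular one by 2.66 ± 0.64 on the log2 scale, a difference between chambers with an adjusted p of 0.0154 in limma. This probe set entered the test only through 6 atrial arrays and read 10 to 76 in ventricles, so the value describes these arrays and the test does not support it independently. It was under the threshold without array 1 of the E12.5 ventricles (2.34, adjusted p = 0.0593) and with a pseudocount of 1 (2.89, adjusted p = 0.0615). The main Sln probe set gave 1.63 ± 1.40 (adjusted p = 0.577).

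Ryr2 on 1421126_at: every E13.5 atrial array was above and every E18.5 atrial array below the ventricular arrays of its age. The chamber difference at E13.5 minus that at E18.5 was 0.77, and this difference was not tested.

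Slc8a1 on 1420210_at: every E18.5 atrial array was above and every E14.5 atrial array below the ventricular arrays of its age. The chamber difference at E18.5 minus that at E14.5 was 1.14, and this difference was not tested.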

How the results depend on the processing

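Of 7010 values under alternatives, over 140 results for main probe sets (10 genes in 14 comparisons), 6871 kept their direction and side of the threshold, 72 lost a call, 62 gained one and 5 reversed, and 142 values called in neither setting changed sign. For the mean over ages 5 or 6 genes were called in every alternative. Leaving out 1 array gave 3 to 4 calls at E12.5, 2 to 4 at E13.5 and 5 to 6 for atria from E12.5 to E18.5. Counts that moved by over 1.5 times were, at E12.5, 5 with array weights. At E14.5 they were 1 in the compared arrays alone and 1 with array weights, and 1 to 5 leaving out 1 array. The setting without the 5 atrial arrays highest in Irx4 (added after seeing the data) also moved the E14.5 count. It left 1 atrial array at that age, so the count is not given. At E16.5 they were 2 with quantile normalization, 2 with the strict filter (75th percentile), 3 in the compared arrays alone, 2 with array weights, 3 with the mean of probe sets and 2 without the Irx4 arrays, and 1 to 3 leaving out 1 array. At E18.5 they were 1 with quantile normalization, 5 with array weights and 1 without the lung arrays, and 1 to 4 leaving out 1 array. For ventricles from E12.5 to E18.5 they were 3 with median centring and 3 with the mean of probe sets, and 3 to 5 leaving out 1 array. For the chamber difference in that change the count was 2 with array weights. For ventricles from E13.5 to E16.5 it was 0 with median centring, 2 in the compared arrays alone, 3 with array weights, 0 without the Alb arrays, 2 without the Irx4 arrays, and 0 to 2 leaving out 1 array. For atria it was 1 with array weights and 0 to 1 leaving out 1 array. For atria from E16.5 to E18.5 it was 0 in the compared arrays alone, with the mean of probe sets and without the lung arrays, and 0 to 1 leaving out 1 array. For E10.5 to E11.5 it was 4 in the compared arrays alone, 1 with array weights, and 0 to 1 leaving out 1 array. The share of all genes called was not computed under these alternatives, so a moved count need not be particular to these genes. The causes were not tested.

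The mean of probe sets reversed Slc8a1 over the 5 ages (-0.16), at E16.5 (-0.38), in atria from E12.5 to E18.5 (0.038) and from E16.5 to E18.5 (0.10), and Trdn at E18.5 (0.060), since their probe sets differ in sign. Median centring moved the median of all probe sets to -0.11 at E13.5 and to -0.14 for ventricles from E13.5 to E16.5. Pairing of the arrays by replicate number was not seen. Of 15 same-age pairs of atrium and ventricle 1 had a correlation of deviations over 0.1 (range -0.34 to 0.16). With few arrays in each group this check cannot exclude pairing. With the replicate number as a block, counts were the same in all 14 comparisons, such as 6 for the mean over ages. That block was shared by all ages and does not model pairs within an age. Low signal limits both Sln probe sets in ventricles, and readings near the top of the range limit Atp2a2, Pln and late atrial Sln on the main probe set.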
